A study of Arabidopsis thaliana with 9 samples.

Results

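Root tips of a quadruple mutant in the class III homeodomain leucine zipper (HD-ZIP III) genes were compared with root tips of wild type. The arrays were chosen by their genotype labels, which gave 3 quadruple-mutant arrays and 3 wild-type arrays, 6 of the 9 arrays in the series. The quadruple mutant combines alleles of CNA, PHB, PHV and REV and carries cna-2, phb-13, phv-6 and rev-6 by its genotype label, whereas the study's design text names the PHV allele phv-11 and the array titles write phb1 and phv11. Quadruple homozygotes were the progeny of plants segregating for rev-6 in a cna-2 phb-13 phv-11 background, and seedlings were recognised by radial cotyledons. The remaining 3 arrays came from the triple mutant cna-2 phb-13 phv-11 and are used here only to show where the quadruple mutant differs from it. Wild type was Col er-2, a Columbia line carrying an allele of ERECTA, and the labels do not say whether the mutants carry er-2 as well. Every group was untreated Arabidopsis thaliana, 4 days after germination, and each array held RNA pooled from hand-cut primary root tips of about 0.5 mm.

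HD-ZIP III proteins are plant transcription factors that carry a homeodomain and a leucine zipper, and their transcripts are cut back by the microRNAs miR165 and miR166. The family is known for setting the upper side of lateral organs, for maintaining the shoot meristem and for patterning vascular tissue. In the root, microRNA made in the endodermis is known to shape a gradient of HD-ZIP III activity across the stele, which decides the kind of xylem that forms.

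Expression was measured on Affymetrix ATH1 arrays, a 1-colour platform with sets of short probes near the 3′ ends of transcripts, and is given as deposited log2 RMA signal, in which a difference of 1 is a 2-fold difference. Array medians were 5.91, 5.91 and 5.95 in the quadruple mutant, 5.92, 5.94 and 5.95 in the triple mutant and 5.89, 5.79 and 5.82 in wild type. Because the arrays were normalized together, a change is relative to the other transcripts on the array, and in whole tips fewer cells of a type and less RNA per cell cannot be told apart. Replicates correlated at 0.995 to 0.997 across probe sets in the quadruple mutant and at 0.990 to 0.994 in wild type, and the median SD was 0.105 in the quadruple mutant, 0.116 in the triple mutant and 0.151 in wild type. The study calls the 3 samples of a genotype biological replicates, without saying how seedlings or plates were divided, and their number limits the precision of every value. Wild-type replicate 3 stood apart. Its mean over 9 nuclear photosynthesis genes, markers of green shoot tissue, was 5.96, against 4.66 to 4.98 in the other 8 arrays. The log2 difference between 3′ and 5′ actin control probe sets was 4.14 in it, against 5.11 to 5.79 in the other 8, but for GAPDH its 1.97 lay within their 1.59 to 3.275. For ubiquitin that difference was 1.34, 1.19 and 1.41 in the quadruple mutant, 1.06 to 1.42 in the triple mutant and 1.13, 1.03 and 1.08 in wild type. The part of RNA ends in any change was not tested. Some results are given with and without wild-type replicate 3, others only with it.

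Few transcripts separated the quadruple mutant from wild type at the threshold in the fit without a replicate block. With limma and Benjamini-Hochberg adjustment over 22746 probe sets, 10 were called at an adjusted p under 0.05, or 0.0440% of those tested, and 5 of them (0.0220%) were higher and 5 (0.0220%) lower in the mutant. After median centring of the arrays 7 were called, 2 higher and 5 lower. With a block on replicate number 67 were called, 50 higher and 17 lower, with all 10 among them, and 9 with that block on the 6 arrays alone. Same-numbered quadruple and wild-type arrays had deviations correlated at 0.0427, 0.342 and 0.360, and the labels do not say that a number marks a shared origin. Calls against wild type are given without the block unless stated, so some probe sets that did not pass would pass with it. Without multiple-test adjustment, 2136 probe sets (9.39%) had p under 0.05, of which 1321 (5.81%) were higher and 815 (3.58%) lower. Only 3 of the 10 called probe sets have a gene listed in the annotation used here: PHV and QQS, and the locus AT2G32560. The other 7 are given by their probe set names. The count rested on single arrays: it was 4 without any one of the quadruple replicates, without wild-type replicate 2 or without wild-type replicate 3, and 59 without wild-type replicate 1. Leaving out triple-mutant replicates, which enter only the shared estimate of spread, gave 5 without replicate 1, 13 without replicate 2 and 6 without replicate 3.

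Changes were small for most of the transcriptome. The 5th percentile of the log2 changes was -0.26 and the 95th was 0.31, the median standard error was 0.115, and for 22396 probe sets (98.5%) the 95% interval of the change stayed within 2-fold in both directions. A change of 2-fold or more was estimated for 5 probe sets with higher and 11 with lower signal in the quadruple mutant. At 1.5-fold the numbers were 134 higher and 70 lower. A further 9 probe sets had adjusted p between 0.05 and 0.1, and the step at the threshold was from 0.0349 for the tenth probe set to 0.0576 for the next.

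**Figure D1:**
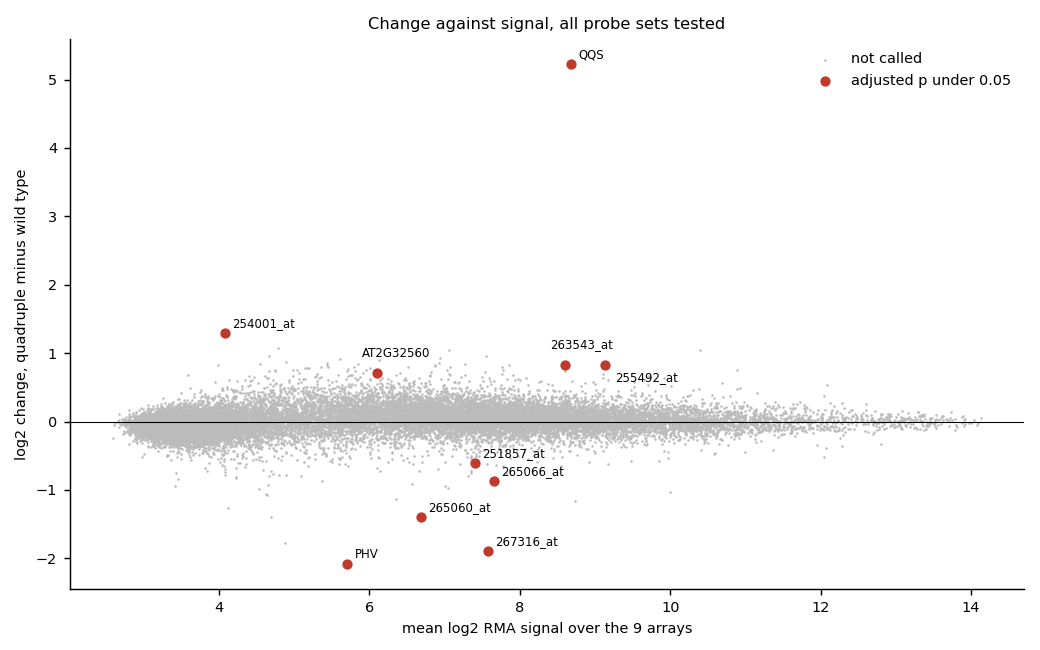
Each point is 1 of 22746 probe sets, with mean log2 RMA signal over the 9 arrays on the horizontal axis and log2 change, quadruple mutant minus wild type, on the vertical axis. The 10 probe sets with adjusted p under 0.05 are red and named. QQS at 5.22 lies far above all others, and PHV at -2.08 is the lowest point.

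PHV (AT1G30490, chromosome 1), one of the mutated HD-ZIP III genes, gave the check of the labels that the annotation used here allows. PHV signal was 5.20, 5.22 and 5.03 in the quadruple mutant, 4.71, 4.77 and 4.76 in the triple mutant and 7.27, 7.14 and 7.28 in wild type. All mutant arrays lay below all wild-type arrays, and the quadruple arrays lay above the triple arrays. The quadruple mutant was 4.22-fold lower than wild type (log2 change -2.08, SE 0.086, 95% interval -2.27 to -1.89, limma adjusted p 5.70e-06), and the change stayed between -2.12 and -2.02 with any array left out. The quadruple mutant exceeded the triple mutant in PHV signal by 0.40 on the log2 scale (limma adjusted p 0.0405), a call that held in only 2 of the 9 fits with 1 array left out. Where the probes lie relative to the lesions of phv-6 or phv-11 was not examined. The HD-ZIP III genes CNA, PHB, REV and ATHB8 are not analysed here, since none was the 1 listed gene of a probe set.

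QQS (AT3G30720, chromosome 3) had the largest change of all probe sets tested. This is a gene found only in Arabidopsis thaliana, with a short protein that is known to shift the balance of starch and protein in leaves. Its signal was 9.88, 9.75 and 9.65 in the quadruple mutant, 11.95, 11.67 and 11.65 in the triple mutant and 5.65, 4.07 and 3.90 in wild type. The 3 groups did not overlap, and the quadruple arrays stood between wild type and the triple mutant. The quadruple mutant was 37.3-fold higher than wild type (log2 change 5.22, SE 0.36, 95% interval 4.41 to 6.03, limma adjusted p 3.35e-04), and without single arrays the log2 change was 4.90 to 5.78. Wild-type replicates 2 and 3 lay near the low end of the arrays, and the table holds no detection calls, so the fold is that of the deposited signals. The quadruple mutant was also below the triple mutant by -2.00 on the log2 scale (limma adjusted p 0.0204), but this difference kept its call in only 3 of the 9 fits that left out 1 array.

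The probe sets 267316_at and 254001_at, neither with a listed gene, were the other calls that held in every fit in which they were tested. The signal of 267316_at was 7.01, 6.86 and 6.85 in the quadruple mutant, 7.02, 7.17 and 6.91 in the triple mutant and 8.80, 8.72 and 8.87 in wild type. Both mutants were well below wild type and overlapped each other. The quadruple mutant was 3.70-fold lower than wild type (log2 change -1.89, SE 0.096, limma adjusted p 2.23e-05), and its difference from the triple mutant of -0.13 did not pass (limma adjusted p 0.793). The signal of 254001_at was 4.93, 4.92 and 5.11 in the quadruple mutant, 3.45, 3.59 and 3.67 in the triple mutant and 3.62, 3.77 and 3.66 in wild type. Here only the quadruple mutant was high, and the other genotypes overlapped. The log2 change over wild type was 1.30 (SE 0.095, limma adjusted p 3.94e-04). The table holds no detection calls and the wild-type signals lie near the low end of the arrays, so no fold is given. The difference from the triple mutant was 1.41 on the log2 scale (limma adjusted p 1.74e-04) and was called in all 9 fits with 1 array left out.

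The other 6 calls were less stable, and each was lost in at least 6 of the 9 fits with 1 array left out, among them the fit without wild-type replicate 3. For AT2G32560 (chromosome 2), a locus without a symbol, the signal was 6.38, 6.24 and 6.36 in the quadruple mutant, 6.28, 6.39 and 6.36 in the triple mutant and 5.59, 5.62 and 5.66 in wild type. Both mutants stood above wild type at overlapping levels, and the quadruple mutant was 1.63-fold higher than wild type (log2 change 0.70, SE 0.080, limma adjusted p 0.0218). A second, dimmer probe set of the same locus gave means of 2.90 in the quadruple mutant and 2.82 in wild type, a change of 0.08 (limma adjusted p 0.825), so the pair did not give the same call. The quadruple mutant also rose above wild type at 263543_at, with 8.86, 8.92 and 9.16 in its arrays against 8.04, 8.26 and 8.16 in wild type (1.78-fold, limma adjusted p 0.0326). At 255492_at the signal was 9.49, 9.51 and 9.45 in the quadruple mutant against 8.71, 8.73 and 8.53 in wild type (1.78-fold, limma adjusted p 0.0326). In both cases every quadruple array exceeded every wild-type array, and the differences from the triple mutant, 0.31 and 0.23 on the log2 scale, did not pass.

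The 3 weakest decreases set the quadruple mutant below both other genotypes. At 251857_at the signal was 6.98, 7.05 and 7.03 in the quadruple mutant, 7.59, 7.55 and 7.54 in the triple mutant and 7.59, 7.65 and 7.63 in wild type (log2 change against wild type -0.60, limma adjusted p 0.0326). At 265066_at it was 7.04, 6.97 and 7.02 in the quadruple mutant, 8.36, 7.97 and 7.95 in the triple mutant and 7.90, 7.86 and 7.86 in wild type (log2 change -0.86, limma adjusted p 0.0330). At 265060_at it was 6.10, 6.03 and 5.53 in the quadruple mutant, 6.86, 7.21 and 6.65 in the triple mutant and 7.43, 7.06 and 7.36 in wild type (log2 change -1.39, limma adjusted p 0.0349). In each, every quadruple array was below all 6 others. Against the triple mutant the log2 differences were -0.54, -1.08 and -1.02, all past the threshold, and the first and second of these were called in all 9 fits with 1 array left out, against 5 of 9 for 265060_at.

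**Figure D2:**
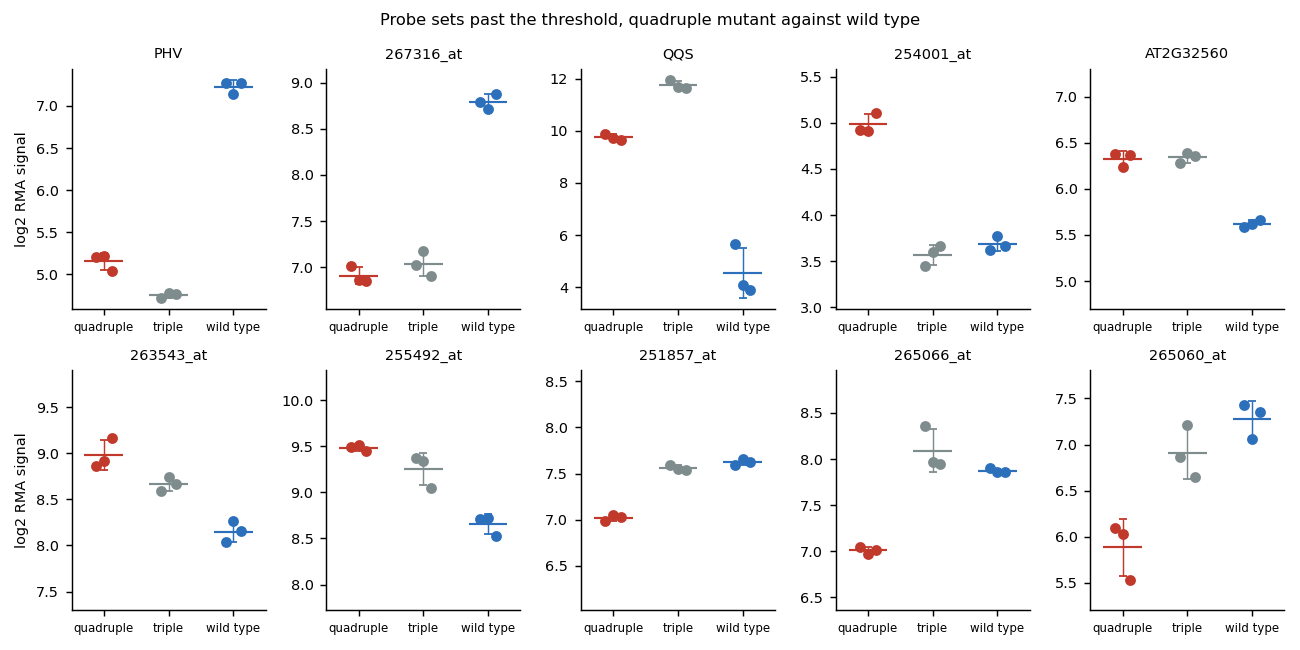
Log2 RMA signal of the 10 probe sets called between quadruple mutant and wild type, with 1 point per array, a horizontal line at the mean and a bar of 1 SD (n = 3 per genotype). Panels have different vertical ranges that do not start at 0. The quadruple and wild-type points do not overlap in any panel, and the triple mutant lies near wild type for 254001_at and 251857_at and near the quadruple mutant for 267316_at and AT2G32560.

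The contrast between the mutants tested whether the quadruple mutant differed from the triple mutant, which shares 3 of the mutated genes. It called 504 probe sets (2.22%), 126 higher (0.554%) and 378 lower (1.66%) in the quadruple mutant. Same-numbered arrays of the mutants deviated together, and blocking on the replicate number gave 1114 calls, 296 higher and 818 lower. Without single arrays it was between 220 (without triple replicate 1) and 610. Genes of wounding and handling moved with this contrast: the mean of 6 such genes was 6.43 to 7.01 in the quadruple arrays and 7.50 to 7.98 in the triple arrays, against 5.96 to 7.45 in wild type. Their median difference between the mutants was -1.04, PUB23, a ubiquitin ligase of the stress response, passed at -0.92 (limma adjusted p 0.0108), and their part in the 504 calls was not tested. Of the 10 probe sets called against wild type, 6 also differed between the mutants: PHV, QQS, 254001_at, 251857_at, 265066_at and 265060_at. This contrast and the one against wild type use the same quadruple arrays, so the values are set side by side without a test of their overlap.

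Arrays of the 2 genotypes were fully separated for many more probe sets than were called. All 3 quadruple arrays lay above all 3 wild-type arrays for 1730 probe sets (7.61%) and below them for 1177 (5.17%), 2907 (12.8%) in all, counts that include the 10 called. Separation depended on signal. Among 7239 probe sets with a mean below 4 on the log2 scale, 2.07% were separated upwards and 7.29% downwards, whereas among 2626 with means of 6 to 7 the shares were 13.2% and 2.78%. The median log2 change moved with it, at -0.05 in the dimmest class, 0.09 at 6 to 7 and 0.0042 at 10 and above. After quantile normalization of the arrays the class medians lay between -0.0044 and 0.010. The part of this signal-dependent shift in any one small change was not tested.

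**Figure D3:**
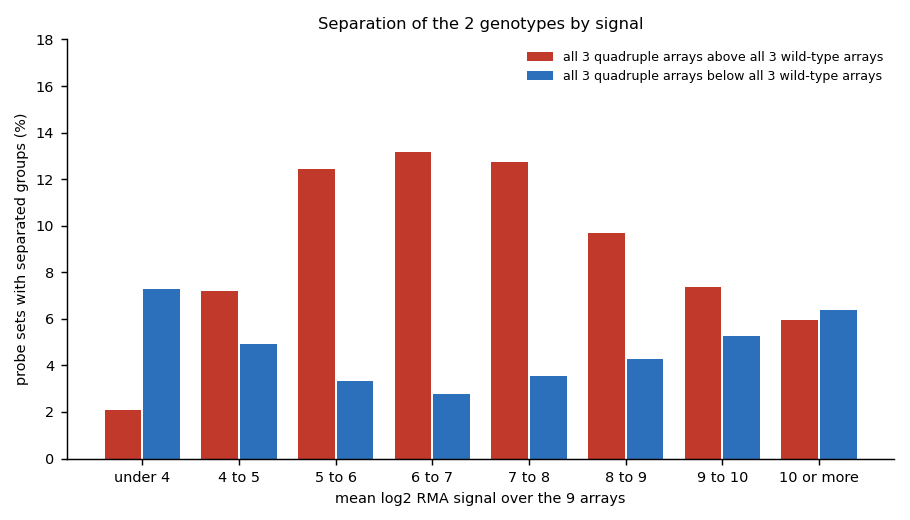
Share of probe sets (percent, vertical axis) whose 3 quadruple arrays all lie above (red) or all below (blue) the 3 wild-type arrays, by mean log2 RMA signal over 9 arrays. The upward share peaks at 13.2% for means of 6 to 7, and the downward share is highest, at 7.29%, below 4.

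From 951 named probe sets separated upwards without a call, the 10 with the largest log2 changes had values of 0.83 to 1.08. The first was AT5G17340, with 5.31, 5.004 and 5.19 in the quadruple mutant, 5.36, 4.80 and 5.18 in the triple mutant and 4.29, 4.00 and 3.97 in wild type. Its log2 change of 1.08 (SE 0.15) missed the threshold narrowly (limma adjusted p 0.0576) and passed without wild-type replicate 1 or triple replicate 2. Without wild-type replicate 2 or 3 it did not pass (limma adjusted p 0.246 and 0.193). The mutants overlapped each other and stood clear of wild type. The second was AT1G65570, with 10.83, 10.61 and 11.22 in the quadruple mutant against 9.42, 9.68 and 10.42 in wild type (log2 change 1.04, limma adjusted p 0.222). Its change was 1.33 without wild-type replicate 3. The third was AT1G26680, with a log2 change of 0.96 (limma adjusted p 0.339). For these genes no role is given in the annotation used here.

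ARR15, a type-A response regulator that is switched on by cytokinin and dampens the cytokinin response, had 5.51, 4.96 and 5.16 in the quadruple mutant, 4.60, 4.41 and 4.60 in the triple mutant and 4.25, 3.90 and 4.60 in wild type. The lowest quadruple array was above the highest array of either other genotype, but the log2 change of 0.96 (SE 0.18) did not pass (limma adjusted p 0.168), nor did the difference from the triple mutant of 0.67 (limma adjusted p 0.115), which passed with the replicate block (limma adjusted p 0.0167). PPDK, pyruvate orthophosphate dikinase, which regenerates phosphoenolpyruvate, had 7.74, 8.07 and 7.52 in the quadruple mutant against 7.03, 7.25 and 6.53 in wild type (log2 change 0.84, limma adjusted p 0.267). The PPDK change was 0.63 without wild-type replicate 3. AT2G26690, a member of the nitrate and peptide transporter family listed as NPF6.2, had a log2 change of 0.87 (limma adjusted p 0.267). BGLU44, a beta-glucosidase, had 0.83 (limma adjusted p 0.320), and the remaining AT5G51470, AT5G12050 and AT2G25590 had 0.85, 0.84 and 0.83, none called. Of these 10 genes, 3 differed between the mutants: the quadruple mutant was above the triple mutant for AT5G51470 by 1.10 and for BGLU44 by 1.02, and below it for AT5G12050 by -0.98. With the replicate block 5 of the 10 differed, with ARR15 and PPDK added.

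Downwards, the 10 largest uncalled changes among 724 separated probe sets ran between -1.17 and -0.65. The largest was AT2G45180, with 7.67, 7.97 and 7.21 in the quadruple mutant, 10.22, 9.64 and 9.50 in the triple mutant and 8.84, 8.94 and 8.59 in wild type. Wild type stood between the mutants, and the change against wild type of -1.17 (SE 0.219, limma adjusted p 0.160) was accompanied by a difference from the triple mutant of -2.17 that passed (limma adjusted p 8.83e-04). AT4G30170 had 5.21, 4.46 and 5.24 in the quadruple mutant, 8.31, 7.59 and 8.07 in the triple mutant and 6.08, 5.41 and 6.82 in wild type. The same order of genotypes held, with -1.13 against wild type (limma adjusted p 0.374) and -3.02 against the triple mutant (limma adjusted p 0.00146). Its change against wild type was -0.77 without wild-type replicate 3. AT5G35940 was different: it had 9.58, 9.33 and 9.84 in the quadruple mutant, 9.70, 9.59 and 10.08 in the triple mutant and 10.56, 10.23 and 11.06 in wild type. Both mutants were below wild type there, at overlapping levels, and the change of -1.03 did not pass (limma adjusted p 0.188). That change was -0.81 without wild-type replicate 3.

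TRI, a tropinone reductase, came nearest to the threshold on the downward side of these genes. Its signal was 7.17, 6.96 and 7.22 in the quadruple mutant, 8.48, 8.56 and 8.28 in the triple mutant and 8.05, 7.65 and 7.92 in wild type, with no overlap between the 3 groups. The quadruple mutant was lower than wild type by -0.75 (SE 0.125, limma adjusted p 0.110) and fell below the triple mutant by -1.32 (limma adjusted p 5.98e-04). MGL, methionine gamma-lyase, an enzyme that breaks down methionine, had 4.32, 4.63 and 4.50 in the quadruple mutant, 6.02, 5.62 and 6.21 in the triple mutant and 5.18, 4.76 and 5.47 in wild type. It too had wild type in the middle, with -0.65 against wild type (limma adjusted p 0.368) and -1.47 against the triple mutant (limma adjusted p 0.00351). The MGL change against wild type was -0.49 without wild-type replicate 3. LCR69, which encodes a small cysteine-rich secreted protein, had 3.96, 4.23 and 3.81 in the quadruple mutant against 4.29, 4.70 and 5.79 in wild type, a change of -0.93 (limma adjusted p 0.519) that was -0.49 without wild-type replicate 3.

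The remaining AT3G26470, AT4G24110, AT1G67330 and AT2G25450 had log2 changes of -0.73, -0.70, -0.68 and -0.65 against wild type, none called. All 10 of these genes had lower means in the quadruple mutant than in the triple, and 8 of the 10 passed that test, with AT5G35940 and LCR69 as the exceptions. In the upward set, 2 of 10 had the lower mean in the quadruple mutant. Both sets were picked for their separation from wild type and share the quadruple arrays with this contrast, so the counts are descriptions.

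**Figure D4:**
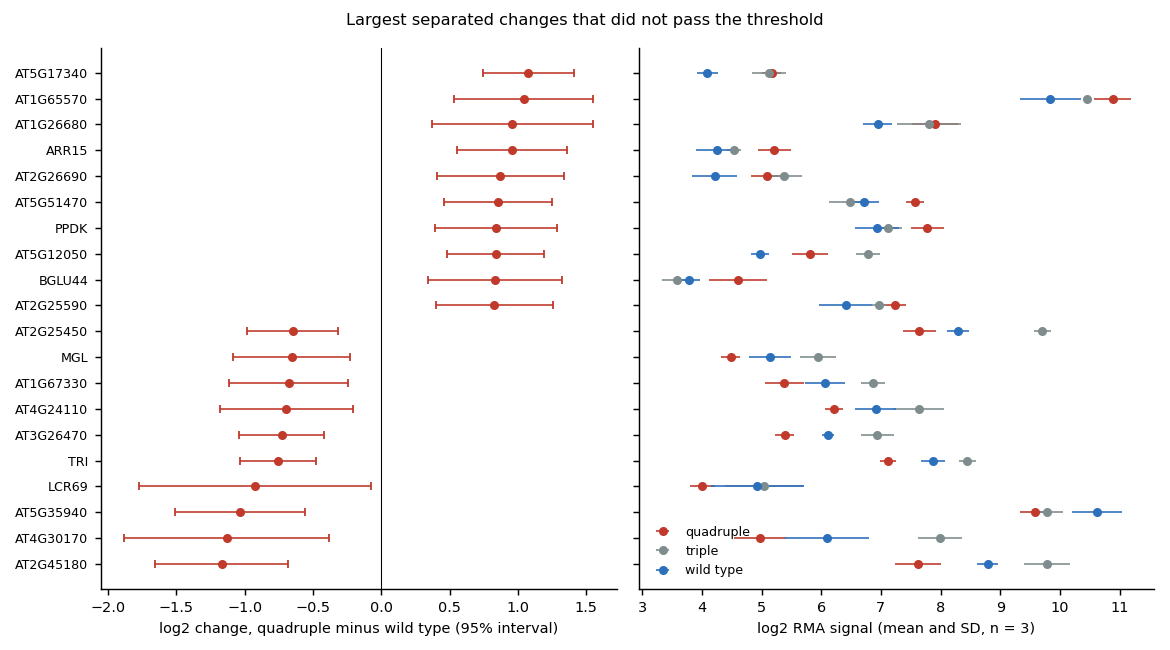
The 10 highest and 10 lowest log2 changes among named genes whose quadruple and wild-type arrays do not overlap but did not pass the threshold. The left panel gives the change with its 95% interval, and the right panel gives mean log2 RMA signal with 1 SD (n = 3) for quadruple (red), triple (grey) and wild type (blue). For AT4G30170, AT2G45180 and AT2G25450 the triple mutant lies above wild type and the quadruple mutant below it.

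BBM and AGL42 were measured as genes of the stem cell niche. BBM, also called BABY BOOM, is an AP2-type PLETHORA factor that maintains root stem cells. Its signal was 8.38, 8.33 and 8.35 in the quadruple mutant, 7.94, 7.75 and 8.003 in the triple mutant and 7.86, 7.70 and 7.68 in wild type. The quadruple arrays were nearly identical and above all 6 others. The log2 change of 0.60 (SE 0.094, 95% interval 0.39 to 0.81) did not pass (limma adjusted p 0.0947). It passed without wild-type replicate 1 (limma adjusted p 0.0495), but not without replicate 2 (0.309) or replicate 3 (0.212) of wild type. The BBM difference from the triple mutant of 0.45 passed (limma adjusted p 0.0353).

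AGL42 is a MADS-box gene expressed in the quiescent centre, the slowly dividing cells at the heart of the niche. It had 6.66, 6.35 and 6.76 in the quadruple mutant, 5.50, 5.09 and 5.19 in the triple mutant and 6.04, 5.66 and 5.97 in wild type. The groups did not overlap and the triple mutant was lowest. The change against wild type was 0.70 (SE 0.149, limma adjusted p 0.203), and the difference from the triple mutant was 1.33 (limma adjusted p 0.00149). The mean of the pair in each array was 7.52, 7.34 and 7.56 in the quadruple mutant, 6.72, 6.42 and 6.60 in the triple mutant and 6.95, 6.68 and 6.83 in wild type.

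IAA20 and IAA30 encode Aux/IAA proteins, a family of repressors of auxin-responsive transcription, and both are atypical members that lack the degron of the canonical ones. IAA20 had 6.65, 6.88 and 6.78 in the quadruple mutant, 6.10, 5.95 and 6.06 in the triple mutant and 6.60, 6.48 and 6.23 in wild type. Its quadruple arrays were the highest by a small margin. The change of 0.34 (95% interval 0.09 to 0.58) did not pass (limma adjusted p 0.459), whereas the difference from the triple mutant of 0.74 did (limma adjusted p 0.00759). Against wild type the IAA20 change was 0.23 without wild-type replicate 3. IAA30 had means of 5.90 in the quadruple mutant, 5.75 in the triple mutant and 5.82 in wild type, and its change of 0.08 (95% interval -0.25 to 0.41, limma adjusted p 0.892) turned negative under other scalings. Among 7 Aux/IAA genes measured, 0 were called, where 0.0440% of all probe sets were. Of their changes 5 were positive and 2 negative. Their median of 0.08 was -0.011 after median centring, 0.00042 without wild-type replicate 2 and 0.037 without wild-type replicate 3.

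The gene lists held 341 measured genes in 35 pathways, families and marker sets. Of these genes 2 were called, PHV and QQS, where 0.0440% of all probe sets were called. Separation without overlap was seen for 23 list genes upwards (6.74%) and 18 downwards (5.28%), against 7.61% and 5.17% of all probe sets. The median log2 change of all probe sets was 0.0049, and median centring of the arrays lowered every change by 0.088. In the cytokinin list 0 of 8 genes were called, 3 were separated upwards and the median was 0.04, between -0.031 without quadruple replicate 2 and 0.11 without quadruple replicate 3. Beside ARR15 these were the cytokinin N-glucosyltransferases UGT76C1 and UGT76C2, which inactivate the hormone. UGT76C2 had 6.54, 6.78 and 6.92 in the quadruple mutant, 6.34, 6.52 and 6.66 in the triple mutant and 6.23, 6.10 and 6.09 in wild type. The mutants overlapped, and the change against wild type of 0.61 did not pass (limma adjusted p 0.168). UGT76C1 had 0.41 (limma adjusted p 0.286). The other 5 members, response regulators with signals near the low end of the arrays, had changes between -0.11 and 0.05.

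In the starch and storage-carbon list 1 of 7 genes, QQS, was called, 3 were separated upwards and the median was 0.24. Upward separation held for 7.61% of all probe sets. APL4, a large subunit of the enzyme that makes ADP-glucose for starch, had 4.78, 5.16 and 5.03 in the quadruple mutant, 4.69, 4.40 and 4.81 in the triple mutant and 4.55, 4.35 and 4.18 in wild type. Its arrays exceeded those of wild type but not all of the triple mutant, and the change of 0.63 did not pass (limma adjusted p 0.238). SBE2.2, a starch branching enzyme, had 8.38, 8.52 and 8.38 in the quadruple mutant against 8.19, 8.10 and 8.22 in wild type (log2 change 0.25, limma adjusted p 0.459). ICL, isocitrate lyase of the glyoxylate cycle, averaged 4.52 in the quadruple mutant, 7.17 in the triple mutant and 4.91 in wild type. It was not called against wild type (log2 change -0.39, limma adjusted p 0.680) and differed from the triple mutant by -2.64 (limma adjusted p 0.00126).

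Transporters and enzymes of sugar and cell wall metabolism had differences in both directions without a call. Of 14 SWEET genes, which encode sugar transporters, 4 changes were positive and 10 negative, with a median of -0.15 that was -0.24 after median centring, -0.093 without wild-type replicate 2 and -0.089 without quadruple replicate 3. SWEET2 had 5.11, 4.88 and 5.41 in the quadruple mutant, 5.24, 5.35 and 5.51 in the triple mutant and 4.43, 4.45 and 4.50 in wild type. Both mutants exceeded wild type, and the change of 0.67 did not pass (limma adjusted p 0.168). SWEET14 was separated downwards at -0.28 (limma adjusted p 0.472). Among 42 wall-loosening genes, 3 were separated upwards and 4 downwards, and the median of -0.03 became 0.0045 after quantile normalization, 0.0095 without quadruple replicate 2 and -0.060 without quadruple replicate 3. Over all probe sets 7.61% were separated upwards and 5.17% downwards. GH9B6, a glycosyl hydrolase of the cellulase family, had 7.20, 7.86 and 7.48 in the quadruple mutant against 6.96, 6.87 and 6.68 in wild type (log2 change 0.68, limma adjusted p 0.241). Of 18 expansins and expansin-like proteins, which loosen cell walls, 9 changes were positive and 9 negative, between -0.44 and 0.36, with 1 separated upwards and 4 downwards. The separated ones named here were EXPA16 at -0.44, EXPB1 at -0.42 and the root hair expansin EXPA7 at -0.21, none called. The EXPB1 value was -0.24 without wild-type replicate 3, and that of EXPA16 was -0.23 without wild-type replicate 2. Of 9 genes of cellulose and wall polysaccharide synthesis, 1 was separated upwards and 0 downwards. This was CSLC12 at 0.19, with a quadruple mean of 3.77, and it was not called (limma adjusted p 0.52).

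Among 47 UDP-glycosyltransferases, which attach sugars to hormones and other small molecules, 4 were separated upwards and 3 downwards, with a median of -0.03 that ran between -0.072 without quadruple replicate 2 and -0.0017 without quadruple replicate 3. UGT73B4 had a change of 0.38 there. Of all probe sets, 7.61% were separated upwards and 5.17% downwards. Of 22 cytochrome P450 genes, 0 were separated upwards and 3 downwards. These were CYP71B28, CYP71B5 and CYP71B36 at -0.30, -0.19 and -0.16, all with quadruple means under 4. Among all probe sets with a mean below 4, 2.07% were separated upwards and 7.29% downwards. Without wild-type replicate 3 the value for CYP71B28 was -0.19, and without wild-type replicate 2 that for CYP71B36 was -0.087. Of 14 glutathione S-transferases 2 were separated upwards, GSTL3 at 0.49 and ATGSTF13 at 0.39. ATGSTF13 had 10.07, 9.94 and 10.10 in the quadruple mutant, 8.64, 9.06 and 8.64 in the triple mutant and 9.51, 9.81 and 9.60 in wild type. The triple mutant was the low genotype here, the change against wild type did not pass (limma adjusted p 0.459), and the difference between the mutants of 1.25 did (limma adjusted p 9.72e-04).

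Of 18 genes for secreted CLE and RALF peptides, 0 were separated upwards and 3 downwards, among them RALFL33 at -0.28 and RALFL28 at -0.24. Of 4 peroxidase genes all had negative changes, and PRX52 was separated at -0.16, or -0.11 without wild-type replicate 2. None of these was called. The shares separated among all probe sets were 7.61% upwards and 5.17% downwards. In the class with a mean below 4, which holds RALFL28 and PRX52, they were 2.07% and 7.29%.

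Outside the cytokinin list, 1 of 12 genes of auxin synthesis, transport and conjugation and 1 of 4 gibberellin genes were separated upwards. In the list of abscisic acid, cold and late embryogenesis 1 of 8 was separated downwards. The separated members were WES1, GID1B and LTI30, and 0 genes of these lists were called. The shares of all probe sets were 7.61% separated upwards, 5.17% separated downwards and 0.0440% called. WES1, an enzyme that conjugates auxin to amino acids, had 6.43, 6.56 and 6.73 in the quadruple mutant, 5.64, 5.88 and 6.11 in the triple mutant and 6.23, 6.07 and 6.33 in wild type. Its change of 0.36 did not pass (limma adjusted p 0.491), and its difference from the triple mutant of 0.70 did (limma adjusted p 0.0243). The 12 genes of auxin synthesis, transport and conjugation had a median of 0.01, between -0.047 without wild-type replicate 1 and 0.049 without wild-type replicate 3. GID1B, a gibberellin receptor, had 5.85, 5.66 and 5.84 in the quadruple mutant, 6.07, 6.07 and 6.41 in the triple mutant and 5.53, 5.35 and 5.34 in wild type. The quadruple mutant lay between the other genotypes, with a change of 0.38 against wild type (limma adjusted p 0.409). LTI30, a dehydrin induced by cold and abscisic acid, had 8.56, 8.56 and 8.26 in the quadruple mutant, 9.97, 10.42 and 9.46 in the triple mutant and 8.87, 9.09 and 8.72 in wild type. It was lowest in the quadruple mutant, with -0.44 against wild type (limma adjusted p 0.555) and -1.49 against the triple mutant (limma adjusted p 0.00514).

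Vascular and tissue markers are of interest because HD-ZIP III genes pattern the stele. For scale, 0.0440% of all probe sets were called, 7.61% were separated upwards and 5.17% downwards. Of 5 xylem genes 0 were called, the median was 0.00024 (-0.091 without wild-type replicate 1, 0.074 without wild-type replicate 3), and 1 was separated: IRX15-L, which acts in xylan synthesis, at -0.25 and with a quadruple mean of only 3.38. LHW, a basic helix-loop-helix factor of the early vascular lineage, averaged 8.93 in the quadruple mutant, 8.93 in the triple mutant and 8.80 in wild type, a change of 0.13 (limma adjusted p 0.688). Of 4 phloem genes 0 were separated and the median was -0.15, or -0.095 without quadruple replicate 1. CLE41, a peptide gene of the phloem that keeps cambium cells dividing, averaged 5.77 in the quadruple mutant, 7.32 in the triple mutant and 6.04 in wild type. Its change of -0.26 against wild type did not pass (limma adjusted p 0.667), and its difference from the triple mutant of -1.54 did (limma adjusted p 0.00201). JKD, a ground tissue factor, was present at 6.70 in the quadruple mutant, 6.65 in the triple mutant and 6.74 in wild type.

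Genes around the HD-ZIP III regulatory circuit were measured in part. AGO7, the Argonaute protein of the trans-acting siRNA pathway in leaf polarity, had 6.52, 6.63 and 6.51 in the quadruple mutant, 6.00, 6.51 and 6.04 in the triple mutant and 6.30, 6.18 and 6.08 in wild type. Its quadruple arrays were above wild type, and the change of 0.37 did not pass (limma adjusted p 0.487). YAB3 and YAB5, which mark the lower side of lateral organs, had log2 changes of -0.29 and -0.12 at quadruple means of 3.62 and 2.94, and SE, which acts in microRNA processing, had -0.13 at 7.88, none of them called. Division genes gave 0 calls among 4, where 0.0440% of all probe sets were called. SIM, an inhibitor of cyclin-dependent kinases, had 6.38, 6.03 and 6.42 in the quadruple mutant, 7.05, 6.97 and 6.87 in the triple mutant and 7.36, 6.34 and 6.92 in wild type. The quadruple arrays overlapped wild type through its replicate 2, and the change of -0.60 did not pass (limma adjusted p 0.489). The Aurora kinases AUR1, AUR2 and AUR3 lay between -0.011 and 0.05, and each changed sign under some settings. Among 7 histone genes, also 0 called, the median was -0.08, or 0.014 without wild-type replicate 1 and -0.21 without wild-type replicate 3.

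Plastid-encoded and nuclear photosynthesis genes had medians of opposite sign, and both medians depended on single arrays. Over all 22746 probe sets, 11688 changes were positive and 11058 negative, 0.0440% were called and 12.8% were separated in either direction. Of 69 plastid-encoded genes, 60 changes were positive and 9 negative, with a median of 0.17, and 0 were called or separated. The list's mean signal was 8.26, 8.15 and 8.48 in the quadruple mutant, 8.29, 8.22 and 8.34 in the triple mutant and 8.40, 8.05 and 7.90 in wild type. Wild-type replicate 3 was the lowest array and replicate 1 overlapped the mutants, and the list's median was 0.048 without replicate 3 and 0.28 without replicate 1. Of the 9 nuclear photosynthesis genes, 8 changes were negative, with a median of -0.26, and 0 were called. Their mean was 4.84, 4.82 and 4.72 in the quadruple mutant, 4.98, 4.97 and 4.73 in the triple mutant and 4.77, 4.66 and 5.96 in wild type. Without wild-type replicate 3 the median was 0.00017, and without wild-type replicate 2 it was -0.62.

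**Figure D5:**
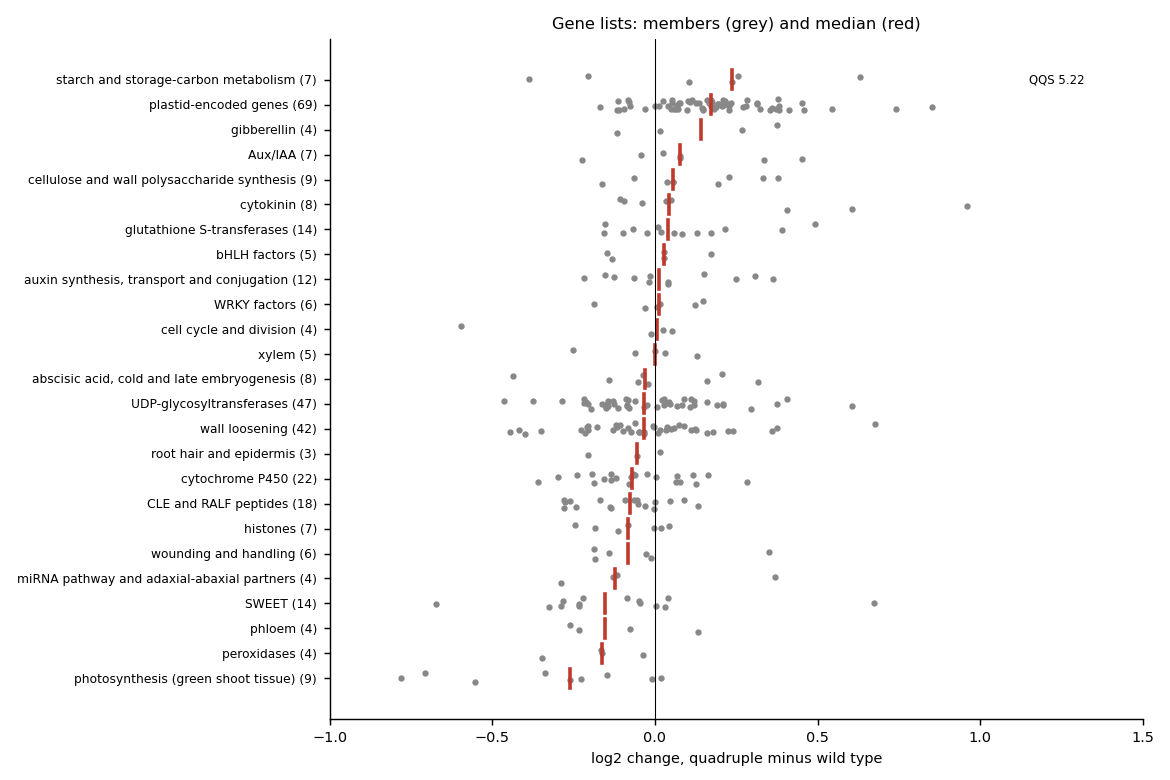
Log2 change, quadruple mutant minus wild type (horizontal axis), of the genes in each list with at least 3 measured members, as grey points, with the list's median as a red bar and the number of genes in brackets. QQS, at 5.22, lies beyond the axis and is written in. The medians lie between -0.26 and 0.24, and the plastid-encoded and starch lists are among the highest.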

How the data were processed

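RNA from 9 pools of root tips was hybridised to ATH1 arrays. The deposited table holds log2 values; per the submitters' processing notes, the authors used Affymetrix Expression Console, RMA and limma, with versions not given in the sources used here. The RMA method removes background, sets all arrays to 1 distribution and summarises the probes. Of 22810 probe sets, 64 controls were left out. The platform annotation lists 1 gene for 13513 of the 22746 tested, several for 503 and does not list 8730, which are unnamed here. Symbols came from RefSeq (TAIR10.1) through the Entrez identifier, without a match for 77.

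Genotype means were fitted over all 9 arrays with limma 3.58.1 in R 4.3.3 (6 residual degrees of freedom), with Benjamini-Hochberg adjustment over all probe sets and a threshold of 0.05. Deviations from genotype means correlated across probe sets at 0.217, 0.340 and 0.515 between same-numbered quadruple and triple arrays, each above 0.1. The titles' numbers were therefore read as pairing the mutants, and the blocked value stands beside that contrast where it matters. Same-numbered triple and wild-type arrays correlated at 0.27, 0.33 and 0.41, also above 0.1, but quadruple and wild-type arrays at 0.0427, 0.342 and 0.360. The block was kept as an alternative against wild type, although by this rule the numbers pair the triple mutant with both other genotypes. Blocked values of single genes against wild type are not given. Tables were handled in Python 3.11.15 with pandas 2.3.3. The fit was also run on simulated data with independent noise in each array. That setting lacks the shared deviations of same-numbered arrays and so does not bear on them.

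Genes named are PHV, QQS, IAA20, IAA30, AGL42, BBM and all called probe sets, the 10 highest and 10 lowest uncalled log2 changes with separated arrays, and, from up to 4 members per list with the largest moderated statistic, those with separated arrays; a few others were chosen after their values were seen. A gene with several probe sets is represented in lists by the brightest. Members and lists were chosen with earlier results of these data known. The alternatives tried were array weights, a robust fit with a variance trend, a 2-fold minimum, quantile normalization, median centring, a mean signal of at least 5, the 6 arrays alone, a block by replicate number, and each array left out.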

Additional observations from a re-analysis of the deposited data

Results flagged for a closer look

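The quadruple mutant differed from the triple mutant at 28 of 76 genes and probe sets examined singly, by the limma contrast between the mutants with Benjamini-Hochberg adjustment over 22746 probe sets. Of all 22746, 504 (2.22%) were called. Many of the 76 were picked for separation from wild type on the same quadruple arrays, and a few after their values were seen, so the count of 28 is a description. Against the triple mutant, the quadruple mutant was lower on the log2 scale at AT4G30170 by -3.02, ICL by -2.64, AT2G45180 by -2.17, AT2G25450 by -2.06, QQS by -2.00, AT3G26470 by -1.56, CLE41 by -1.54, LTI30 by -1.49, AT1G67330 by -1.48, AT1G27030 by -1.47, MGL by -1.47, AT4G24110 by -1.41 and TRI by -1.32. Smaller decreases were found at 265066_at (-1.08), 265060_at (-1.02), AT5G12050 (-0.98), PUB23 (-0.92), EXPB1 (-0.72) and 251857_at (-0.54). It was higher at 254001_at by 1.41, AGL42 by 1.33, ATGSTF13 by 1.25, AT5G51470 by 1.10, BGLU44 by 1.02, IAA20 by 0.74, WES1 by 0.70, BBM by 0.45 and PHV by 0.40. Adjusted p ran between 1.74e-04 for 254001_at and 0.0435 for BGLU44. Of the 28, 6 were also called against wild type. With the replicate block 0 of the 28 were lost and 5 were gained: ARR15, PPDK, RALFL33, GH9B6 and SIM.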

How the results depend on the processing

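The 10 calls between quadruple mutant and wild type became 5 with the 6 arrays alone or a 2-fold minimum, 9 with a mean signal of at least 5, 11 after quantile normalization, 11 with a variance trend, 7 with array weights and 7 (2 higher, 5 lower) after median centring; without single arrays they ranged between 4 and 59, and 52 of the 59 had adjusted p above 0.049. Same-numbered quadruple and wild-type arrays had deviations correlated at 0.0427, 0.342 and 0.360, and 5 of 6 arrays correlated best with their own number, and the labels do not say that a number marks a shared origin; between triple and wild-type arrays the correlations were 0.273, 0.330 and 0.408. With the replicate block the calls were 67 (50 higher, 17 lower, with all 10 among them), and 9 with the block on the 6 arrays alone. The 504 calls between the mutants became 1114 with the replicate block, 1663 with array weights, 164 with a 2-fold minimum and 220 to 610 without single arrays. The 2 list genes called became 7 with the replicate block and 2 to 9 without single arrays. IAA30 turned to -0.011 after median centring, -0.0093 after quantile normalization and between -0.051 (without wild-type replicate 2) and 0.27 without single arrays. AUR1 turned to -0.035 and AUR2 to -0.063 after median centring, and AUR3 to 0.026 with array weights. Without single arrays AUR2 ran between -0.024 and 0.096, AUR3 between -0.045 and 0.018 and JKD between -0.094 and 0.0022. PHV kept its direction and call throughout. Of 1254 values of 76 single genes and probe sets over 17 settings, 1160 kept direction and call, 56 lost and 26 gained a call, and 12 (IAA30, AUR1, AUR2, AUR3 and JKD) reversed. The cause of these moves was not tested. Array number, and signals near the low end of the arrays, limit what could be called.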

Other observations

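Of the 9 probe sets with adjusted p between 0.05 and 0.1, 5 have a listed gene, and beside AT5G17340 and BBM these were AT1G74010, bZIP44 and AT1G27030, named after their values were seen. bZIP44, a basic leucine zipper transcription factor, had 9.20, 9.59 and 9.30 in the quadruple mutant, 9.20, 9.40 and 9.26 in the triple mutant and 8.67, 8.64 and 8.69 in wild type. Both mutants lay above wild type and overlapped each other, and the log2 change of 0.69 had a limma adjusted p of 0.0947. AT1G74010 had 6.38, 6.15 and 6.48 in the quadruple mutant, 6.12, 6.33 and 6.31 in the triple mutant and 5.55, 5.68 and 5.61 in wild type, again with overlapping mutants above wild type (log2 change 0.72, limma adjusted p 0.0684). AT1G27030 had 6.51, 6.64 and 6.39 in the quadruple mutant, 8.14, 7.93 and 7.89 in the triple mutant and 7.16, 7.13 and 7.11 in wild type. Its 3 genotypes did not overlap, with wild type in the middle, and the change against wild type was -0.62 (limma adjusted p 0.0947).

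Genes of wounding and handling differed more among arrays of a genotype than between quadruple mutant and wild type. The mean of 6 such genes was 7.01, 6.73 and 6.43 in the quadruple mutant, 7.98, 7.75 and 7.50 in the triple mutant and 7.45, 6.86 and 5.96 in wild type. The median change of -0.08 became 0.39 when wild-type replicate 1 was left out and -0.50 when wild-type replicate 3 was. Of the 6 genes 0 were called, where 0.0440% of all probe sets were.

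With wild-type replicate 1 left out, 59 of 22746 probe sets passed, 52 of them with adjusted p above 0.049. Of the 341 list genes 9 passed, among them the plastid-encoded petL, petG and rpoB, the sugar transporter gene SWEET13 and BBM. The limma adjusted p of petL, SWEET13 and BBM was 0.0495 in that fit. Without wild-type replicate 2 it was 0.868, 0.803 and 0.309. In the fit of all arrays petL stood 0.85 above wild type on the log2 scale (limma adjusted p 0.580) and SWEET13 had a difference of -0.67 (limma adjusted p 0.458).

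By chromosome, the share of named probe sets with an unadjusted p under 0.05 was between 8.51% on chromosome 4 and 9.45% on chromosome 1.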
